A study of Mus musculus with 40 samples.

Results

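This report describes lasered choroid from mice with intact endothelial Tgfbr2, compared between PLX5622 feeding and control food. Of the 40 libraries in the series, 10 were chosen by their titles as choroid without Cre, 5 from mice fed control food (control – PLX, mice 1 to 5) and 5 from mice fed PLX5622, an inhibitor of the CSF1 receptor (control + PLX, mice 11 to 15). All 10 mice were Tgfbr2 fl/fl on a C57BL/6J background. They lacked the Cdh5-CreERT2 transgene, which drives Cre in endothelium, but carried the floxed alleles and received tamoxifen eye drops at 6 to 7 weeks like their Cre-positive littermates. Mice given PLX5622 ate it from the start of tamoxifen treatment until they were killed. Each eye received 6 laser burns and was collected on day 3, and RNA was taken from the central choroid that held the lesions. Both sexes were used. The other choroids came from Tgfbr2 fl/fl mice with Cdh5-CreERT2 (Tgfbr2 ΔEC) on the same diets, and the retina of each mouse was sequenced as a separate library.

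Mononuclear phagocytes (MP) are the monocytes, macrophages, microglia and dendritic cells of a tissue. Most tissue macrophages and microglia need signals through the receptor encoded by Csf1r, whose ligands are the products of Csf1 and Il34, and CSF1R inhibitors remove many of them. Around a laser burn that breaks Bruch's membrane, MP gather and new vessels grow toward the retina. Earlier fate mapping cited by the study's authors found mainly resident microglia at such lesions and little from blood. The authors did not fully exclude infiltrating macrophages.

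The 10 control choroid libraries held 25059731 to 25956180 normalized counts each, with 22767 to 24214 genes above 0. Steps between low values put their depth at about 21628874 to 28331348 reads, in overlapping ranges for the 2 diets. The mean log2 level of 10 photoreceptor genes ranged from 7.69 to 10.62 in control – PLX and from 7.64 to 12.84 in control + PLX, the last being mouse 15. Y-linked transcripts were expressed in 3 mice and Xist in 2 mice of each diet. Nothing in the labels gives a batch.

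The check of depletion used 3 phagocyte genes. Csf1r, the receptor the diet targets, was at 8229, 8325, 8435, 8163 and 8902 normalized counts in the 5 control – PLX mice and at 4235, 3177, 3887, 4986 and 4199 in the 5 control + PLX mice. The groups did not overlap, and the mean with PLX5622 was 48.7% of that without. Cx3cr1, the fractalkine receptor, was at 1589, 1411, 1300, 1566 and 1643 without PLX5622 and at 110, 121, 177, 120 and 94.4 with it. Only 8.27% of its mean level was left. C1qc, a chain of the complement recognition molecule C1q, was at 4702, 5645, 5194, 4437 and 4358 without PLX5622 and at 430, 1083, 895, 569 and 438 with it, 14.0% of the level in control – PLX. For each of the 3 genes the exact two-sided permutation test over 5 against 5 mice gave p = 0.00794, the smallest this design allows. In bulk tissue, fewer cells of a type and less RNA per cell cannot be told apart, here and in all that follows.

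**Figure D1:**
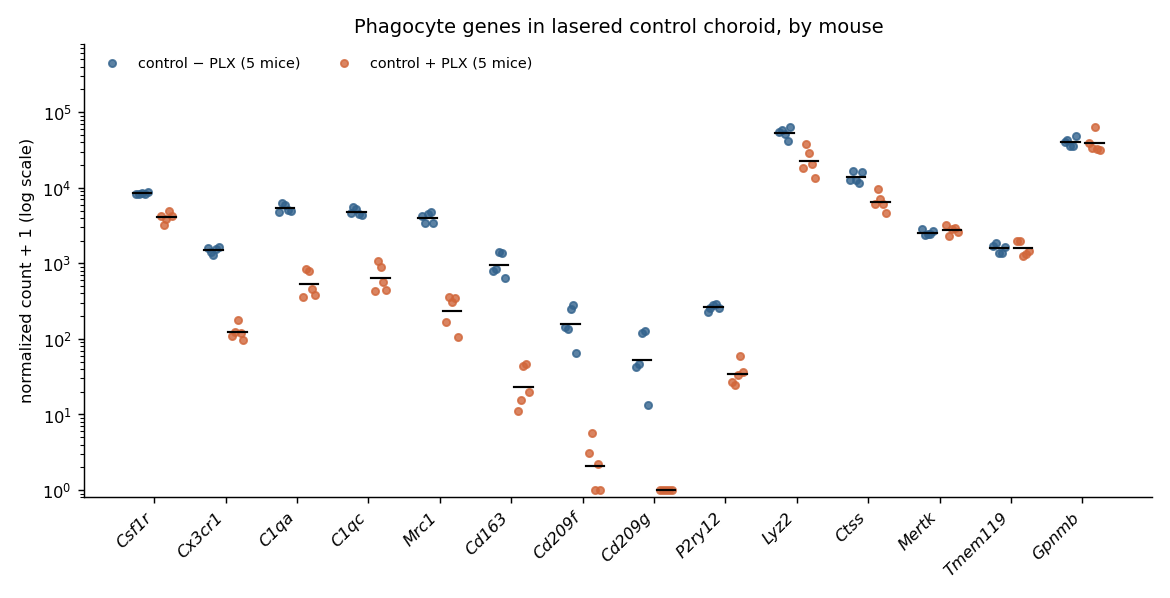
Normalized count plus 1 on a log axis for 14 genes in the choroid of 5 control – PLX and 5 control + PLX mice; each point is 1 mouse and each bar the geometric mean. Cx3cr1, Mrc1 and Cd163 fell below every control – PLX mouse by a wide margin, Csf1r, Lyz2 and Ctss fell less, and Mertk, Tmem119 and Gpnmb overlapped between the diets.

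Across the 23619 genes tested, 885 passed an adjusted p of 0.05 (limma, Benjamini-Hochberg), which is 3.75% of them. Of these, 743 were lower with PLX5622 (3.15% of all genes tested) and 142 were higher (0.601%). The median difference over all genes was 0.02 on the log2 scale. Before adjustment, 3249 had a p under 0.05. The 743 lower genes kept a median of 40.6% of their control – PLX level. Of them, 40 kept under 10%, 144 kept 10 to 25%, 281 kept 25 to 50% and 278 kept 50% or more. In 610 of the 743, every mouse on PLX5622 was below every mouse on control food, a pattern seen in 3.27% of all genes tested. Together the 743 genes took 4.80 to 5.43% of the normalized counts in control – PLX and 2.41 to 3.26% in control + PLX. The 142 higher genes were smaller in effect, with a median of 1.49-fold, and 30 of them reached 2-fold.

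**Figure D2:**
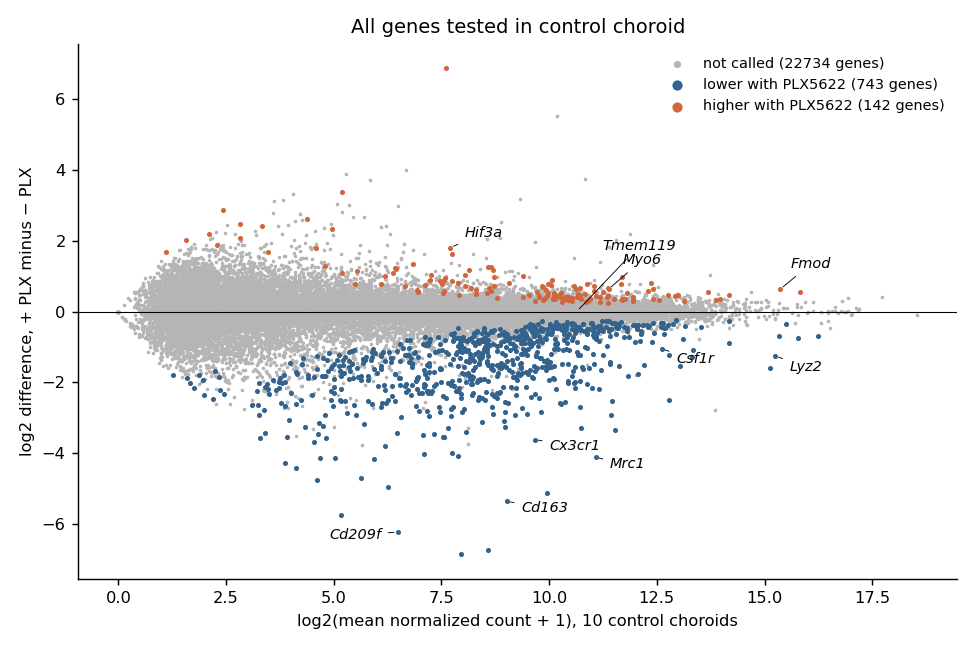
Mean level of each of 23619 genes in the 10 control choroids (log2 of the mean normalized count plus 1) against its log2 difference, control + PLX minus control – PLX. The 743 lower genes reach far below 0 at low and middle levels, while most of the 142 higher genes sit close to 0.

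The 15 lower genes of lowest p were all protein-coding, and most are known from phagocytes or other leukocytes. Cx3cr1 led them with a log2 difference of -3.61 ± 0.17 (SE, n = 5 and 5; adjusted p = 5.1e-11, limma). Next were the sialic acid receptor Cd33 (1150 to 176 mean normalized counts), C1qa (5383 to 567), the mannose receptor Mrc1 (4063 to 256) and the microglial receptor Gpr34 (347 to 29.4). Cd180, a Toll-like receptor homologue, went from 759 to 155 and the kinase gene Lyn from 1579 to 539. The list went on with the haemoglobin scavenger receptor Cd163, the iron exporter Slc40a1, the signalling adaptor Pik3ap1, Nxpe5, the leukocyte actin bundler Lcp1, Arhgap30, the lipopolysaccharide-degrading enzyme Aoah and the macrophage sialoadhesin Siglec1. For all 15, every control + PLX mouse was below every control – PLX mouse, but these genes were chosen by p from the same mice. That pattern was seen in 610 of the 743 lower genes and in 3.27% of all genes tested.

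Of 23 core MP genes, 22 fell and 1, Mertk, did not pass the test. The list's median difference was -1.87, against 0.02 over all genes. Those with the least left were Cx3cr1, C1qa (10.5% left), C1qc and the microglial marker Aif1 (15.3%). Among the members that kept more were Csf1r, the cathepsin Ctss (48.0%), the lysozyme gene Lyz2 (44.3%) and the pore-forming perforin-2 gene Mpeg1 (41.3%). Lyz2 was still at 18233, 38174, 28981, 20370 and 13634 normalized counts in the mice on PLX5622, from 54245, 58047, 50793, 42205 and 64095 without it. Its groups did not overlap, and in mouse 12 it came close to the lowest control – PLX mouse. Mertk, a receptor for apoptotic cells that retinal pigment epithelium also expresses, was at 2826, 2369, 2433, 2409 and 2704 without PLX5622 and at 3189, 2304, 2878, 2929 and 2591 with it (log2 difference 0.12 ± 0.09, adjusted p = 0.64, limma), and the groups overlapped.

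Genes of resident and perivascular macrophages had the lowest median difference of the 36 lists examined. Of 19 listed members, Fcrls matched no identifier under that symbol and was left out. It was not equated with any other symbol, so it may have been measured under another name. Of the 18 measured, 16 fell, with a list median of -3.20, and the 16 kept a median of 9.57%. Mrc1 was at 4226, 3424, 4480, 4797 and 3385 normalized counts without PLX5622 and at 168, 353, 303, 350 and 105 with it, a log2 difference of -4.11 ± 0.27 (adjusted p = 5.7e-09, limma). Cd163 was at 792, 839, 1403, 1368 and 640 without PLX5622 and at 9.997, 14.6, 43.4, 46.2 and 18.7 with it, so that 2.64% of its mean was left. No mouse on PLX5622 came near any mouse on control food for either gene. The C-type lectin gene Cd209g was at 42.0, 45.9, 120, 127 and 12.5 without PLX5622 and listed at 0 in all 5 mice with it. Taking 3 reads per library as the floor, that is at least 21.5-fold lower. Its neighbour in the family, Cd209f, was at 143, 134, 250, 283 and 64.8 without PLX5622 and at 2.10, 4.65, 0, 1.23 and 0 with it, at or under 3 reads in 4 of the 5 mice. The coagulation factor subunit gene F13a1 kept 11% of its level, the hyaluronan receptor gene Lyve1 15.1% and the scavenger receptor gene Stab1 19.2%. Folr2, Cbr2, Pf4, Timd4, Clec10a, Ms4a7 and the chemokine genes Ccl8 and Ccl24 fell as well, and the selenium carrier gene Selenop fell little (79.0% left). The 2 members that did not pass were Gas6, a ligand of Mertk (log2 difference 0.30 ± 0.13), and the growth factor gene Igf1 (-0.55 ± 0.18). Outside the 18, the complement receptor gene Vsig4 was at 49.95, 62.5, 71.2, 24.9 and 20.2 without PLX5622 and at 0, 0, 0, 2.08 and 1.89 with it, under 3 reads in each mouse. The ficolin gene Fcna went from a mean of 148 to 3.72 and Fcrl2 from 1906 to 66.9.

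Genes named for homeostatic microglia were split. Of 10 measured, 6 fell: the purinergic receptors P2ry12 and P2ry13, Gpr34, Siglech, Gpr84 and Bin2, which kept 8.48 to 20.9%. P2ry12 was at 226, 254, 281, 288 and 255 normalized counts without PLX5622 and at 25.7, 23.8, 31.9, 58.0 and 35.2 with it, with no overlap. Tmem119 was level, at 1708, 1882, 1366, 1352 and 1622 without PLX5622 and 2002, 1991, 1266, 1324 and 1473 with it (log2 difference 0.01 ± 0.13, adjusted p = 0.99, limma). Olfml3 (7036 and 7274), Sall1 (53.3 and 40.3) and Slc2a5 (0.484 and 3.80) also did not pass. In control – PLX mice, Tmem119 was at a mean of 1586 in choroid and 67.7 in retina. Which choroidal cells held Tmem119 and Olfml3 RNA was not tested, so their levels cannot be read as a count of microglia.

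Among 14 genes linked to disease-associated or lipid-laden phagocytes, 7 fell and 7 did not pass, with a list median of -0.82. Spp1, the secreted matrix protein osteopontin, was at 66053, 45736, 49268, 54481 and 51738 normalized counts without PLX5622 and at 19060, 22602, 18417, 14867 and 14475 with it. The groups did not overlap and 33.5% was left. Apoe, an apolipoprotein made by many cell types, was at 93796, 105004, 91074, 77289 and 104744 without PLX5622 and at 58894, 76223, 56218, 57491 and 48463 with it, 63.0% of its former mean. Lpl, Itgax, Ch25h and the macrophage elastase gene Mmp12 fell too. Gpnmb, a glycoprotein that pigment cells also make, was at 40190, 42904, 35225, 35587 and 47829 without PLX5622 and at 39729, 33792, 62880, 32147 and 31643 with it. Those groups overlapped fully, as did those of Cd9 and Cd63, and Clec7a, Lgals3, Fabp5 and Cst7 had negative differences that did not pass.

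Of 12 transcription factor genes of the myeloid lineage, 8 fell, with a list median of -0.93. In the 10 control choroids alone, and without mouse 4 or mouse 15, 6 of the 12 fell. Spi1, which encodes PU.1, a factor needed for macrophage development, was at 904, 964, 985, 859 and 1048 normalized counts without PLX5622 and at 237, 394, 333, 260 and 119 with it. The highest mouse on PLX5622 was below the lowest on control food. Irf8, Irf5, Cebpa, Ikzf1, Tfec, Maf and Zeb2 fell as well, Zeb2 the least of them (76.5% left). Cebpb, Runx1 and Nr1h3 were among the 4 that did not pass.

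The promoters of the genes that fell can be set beside those factors. The windows were the 250 bases before the annotated start of the canonical transcript (GENCODE, GRCm39). PU.1 binds the core GAGGAAGT, and PU.1 with an IRF partner binds a composite of GGAA and GAAA with any 2 bases between them, each searched on both strands. The 2 can overlap, although none of the 694 protein-coding lower genes held both and 7 of all 16985 protein-coding genes tested did. GAGGAAGT was in 39 of the 694 lower promoters (5.62%), in 3 of 129 higher promoters (2.33%) and in 2.13% of all. The composite was in 28 lower promoters (4.03%), in 2 higher promoters (1.55%) and in 2.40% of all. Near-identical gene copies among the lower genes, such as Cd300ld4 and Cd300ld5, were counted separately. Of the 15 lower genes of lowest p, 0 held either sequence in this window. A match of letters is a description and not a binding site. The 3 windows below belong to listed MP genes that fell and hold a match, which is in capitals. They are read 5′ to 3′ on the gene's strand and were chosen after the matches were seen. C1qc (chr4:136620377-136620626, minus strand) and Fcer1g (chr1:171062220-171062469, minus strand), which encodes the signalling chain of Fc receptors, hold the reverse complement of GAGGAAGT. Lyve1 (chr7:110462461-110462710, minus strand) holds the composite.
C1qc: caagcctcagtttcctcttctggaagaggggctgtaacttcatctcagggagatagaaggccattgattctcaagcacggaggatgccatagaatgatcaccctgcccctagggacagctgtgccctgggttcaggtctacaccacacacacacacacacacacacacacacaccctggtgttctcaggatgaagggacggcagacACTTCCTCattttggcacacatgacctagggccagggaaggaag
Fcer1g: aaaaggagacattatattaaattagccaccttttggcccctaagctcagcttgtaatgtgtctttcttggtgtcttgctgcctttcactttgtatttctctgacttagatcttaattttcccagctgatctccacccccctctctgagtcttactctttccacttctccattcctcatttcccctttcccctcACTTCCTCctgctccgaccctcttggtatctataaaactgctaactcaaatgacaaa
Lyve1: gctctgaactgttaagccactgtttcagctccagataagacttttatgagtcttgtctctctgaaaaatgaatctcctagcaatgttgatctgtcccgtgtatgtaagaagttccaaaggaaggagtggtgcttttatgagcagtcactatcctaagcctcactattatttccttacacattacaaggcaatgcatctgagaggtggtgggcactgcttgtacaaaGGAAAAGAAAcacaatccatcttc

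Genes for recognition of antibodies and microbial products mostly fell. Of 16 Fc and Toll-like receptor genes, 12 fell (75%, beside 3.15% of all genes tested), with a list median of -2.001. All 12 fell without overlap between the diets, as did 610 of the 743 lower genes and 3.27% of all genes tested. Fcgr4, an activating antibody receptor, was at 306, 379, 375, 263 and 371 normalized counts without PLX5622 and at 83.1, 119, 78.2, 74.7 and 53.8 with it. The nucleic acid sensors Tlr7 (889 to 124), Tlr8 (425 to 109), Tlr9 (182 to 42.2) and Tlr13 (1076 to 334) fell, as did Tlr1, Tlr2 and the lipopolysaccharide co-receptor Cd14. Tlr3, Tlr4, Ly96 and Myd88 did not pass.

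Complement genes fell in part. Of 22 measured, 8 fell: the 3 chains of C1q, properdin (Cfp, 948 to 282), the receptors C3ar1 (2421 to 617), C5ar1 (992 to 199) and C5ar2 (132 to 38.4), and C6 (26.6 to 1.56, at or under 3 reads in 4 of 5 mice on PLX5622). The C1q proteases C1ra (5395 and 6199) and C1s1 (8194 and 8571), the central component C3, C4b, factor B (Cfb) and the regulators Serping1, Cd55, Cd59a and Clu did not pass. C3 was at 4506, 5695, 8324, 7893 and 3874 without PLX5622 and at 5291, 8997, 5740, 6119 and 5384 with it, in overlapping groups (log2 difference 0.09 ± 0.24, adjusted p = 0.92, limma). The list's median difference was -0.11, and it was -0.20, -0.30 and -0.19 without mouse 2, 12 and 14.

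Genes of antigen presentation through MHC class II and class I both fell in part. Of 10 class II genes, 7 fell, with a list median of -1.35: H2-Aa, H2-Ab1, H2-Eb1, the invariant chain Cd74, the transactivator Ciita, H2-DMa and H2-DMb1. H2-Ab1 was at 3368, 3450, 4488, 3714 and 4849 normalized counts without PLX5622 and at 1013, 2437, 1333, 1794 and 900 with it, with no overlap. Of 9 class I genes, 4 fell (H2-K1, the peptide transporter chain Tap1, the proteasome subunit Psmb8 and the activator Nlrc5), and H2-D1 (12388 and 9206) and B2m (22077 and 17333) did not pass. In the 10 control choroids alone, 2 of the 9 class I genes fell. The difference between the 2 lists was not tested.

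Of 17 interferon-stimulated genes, 2 fell, Irf7 and Oas1a (11.8%, beside 3.15% of all genes tested), with a list median of -0.39. Irf7, the factor that amplifies the type I response, was at 505, 787, 2052, 672 and 529 without PLX5622 and at 304, 414, 353, 268 and 256 with it. Mouse 3 stood far above its group, and the groups did not overlap. Ifit3 (1840 and 1857) and Isg15 (366 and 239) did not pass. Without mouse 2, 3, 11, 14 or 15, 1 of the 17 fell.

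Of 24 chemokine and cytokine genes, 10 fell and 14 did not pass, with a list median of -1.42. The monocyte attractant Ccl2 was at 435, 442, 476, 374 and 361 normalized counts without PLX5622 and at 137, 282, 187, 165 and 109 with it (log2 difference -1.31 ± 0.22, adjusted p = 7.7e-04, limma). Every mouse on PLX5622 was below every mouse on control food. Ccl12, another CCR2 ligand, fell further (114 to 7.17), and Ccl3, Ccl4, Ccl6, Ccl7, Ccl9, Cxcl16, Tnf and Osm also fell. Il1b (115 and 38.1, adjusted p = 0.067, limma) and Il10 (5.50 and 0.612) did not pass, nor did Cxcl12 (15839 and 20207), Il6, Il33 and Lif.

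In the CSF1 receptor axis, 3 of 13 measured genes fell, all receptors: Csf1r, Csf2ra (1506 to 720) and Csf3r (444 to 268). The Csf3r call was lost without mouse 2, 4, 5, 14 or 15. The ligand Csf1 was at 2335, 3156, 2865, 3333 and 2641 without PLX5622 and at 2848, 3346, 2343, 3152 and 2591 with it (log2 difference -0.01 ± 0.11, adjusted p = 0.99, limma), and the groups overlapped. Il34, the other ligand, was at a mean of 607 and 748 and did not pass either. Kit, Pdgfra and Pdgfrb, receptor kinases of the same family as CSF1R, had differences of 0.31, 0.39 and 0.20 that did not pass.

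Of 18 lysosomal genes, 12 fell, keeping a median of 60.9%, and the list median was -0.43. In the 10 control choroids alone, and without mouse 5 or mouse 14, 8 of the 18 fell. The dipeptidyl peptidase cathepsin C (Ctsc) was at a mean of 6897 normalized counts without PLX5622 and 2464 with it, the legumain gene Lgmn at 9856 and 4250, and cathepsin B (Ctsb), among the highest in level, at 70191 and 41997. Ctss, Grn, Gusb, Lipa, Ctsz, Hexa, Ctsa and Lamp1 were among the others that fell, Lamp1 the least (83.5% left). Cathepsin D (Ctsd, 99122 and 82138), Ctsl, Ctsk, Ctsh, Lamp2 and Npc2 did not pass.

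Of 15 genes of cholesterol and lipid handling, 5 fell, among them the scavenger receptors Msr1 (1556 to 227) and Cd36 (3076 to 1124), Apoe and Lpl. The efflux transporters Abca1 and Abcg1 and the sterol synthesis genes Sqle and Hmgcs1 did not pass. Of 9 iron genes, 3 fell. The iron exporter gene Slc40a1 was at 856, 757, 740, 921 and 796 without PLX5622 and at 335, 227, 234, 274 and 225 with it, without overlap. Haem oxygenase (Hmox1, 2892 to 1255) and the phagosomal iron transporter Slc11a1 (1464 to 648) fell with it, and the ferritin chains Fth1 and Ftl1 did not pass.

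Monocytes, neutrophils, dendritic cells, lymphocytes and mast cells were followed by lists of their own. Beside their counts, 3.15% of all genes tested were called lower and 0.601% higher. In 3.27% of all genes tested, every mouse on PLX5622 was below every mouse on control food. Of 10 monocyte genes, 1 fell (2 without mouse 12 or mouse 13) and 1 rose. Ccr2, the receptor that brings inflammatory monocytes into tissue, was at 2415, 1826, 2555, 2315 and 3415 without PLX5622 and at 425, 571, 835, 749 and 316 with it, 23.1% of its former mean. Ly6c2 had a log2 difference of -1.48 ± 0.49 (adjusted p = 0.12, limma), and Plac8, Chil3 and Vcan were between -0.48 and -0.05. The gene that rose, Ace, encodes angiotensin-converting enzyme, which endothelium makes as well, and was at 4336, 4387, 5141, 3273 and 3178 without PLX5622 and at 7317, 6727, 5123, 5963 and 4997 with it, with a small overlap. It did not pass without mouse 4, 5 or 11 or in the 10 control choroids alone. Of 10 neutrophil genes measured, 1 fell, Csf3r, and S100a8 (38.8 and 51.1) and S100a9 (59.0 and 63.2) did not pass. Without mouse 2, 4, 5, 14 or 15 no neutrophil gene passed. Of 10 dendritic cell genes, 5 fell (Cd209a, Ccr7, Batf3, Wdfy4 and Irf8) and Xcr1, Clec9a, Flt3, Zbtb46 and Itgae did not. Without mouse 3 or mouse 5, and in the 10 control choroids alone, 3 of the 10 fell. Of 15 lymphocyte genes, Cd4 (285 to 71.8) and Cd79b (54.9 to 16.5) fell, without overlap for either. The T cell receptor genes Cd3e (15.4 and 15.5) and Trac (49.2 and 49.1) and the B cell genes Cd79a and Ms4a1 did not pass. None of 9 mast cell genes passed, 6 having a negative and 3 a positive difference.

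**Figure D3:**
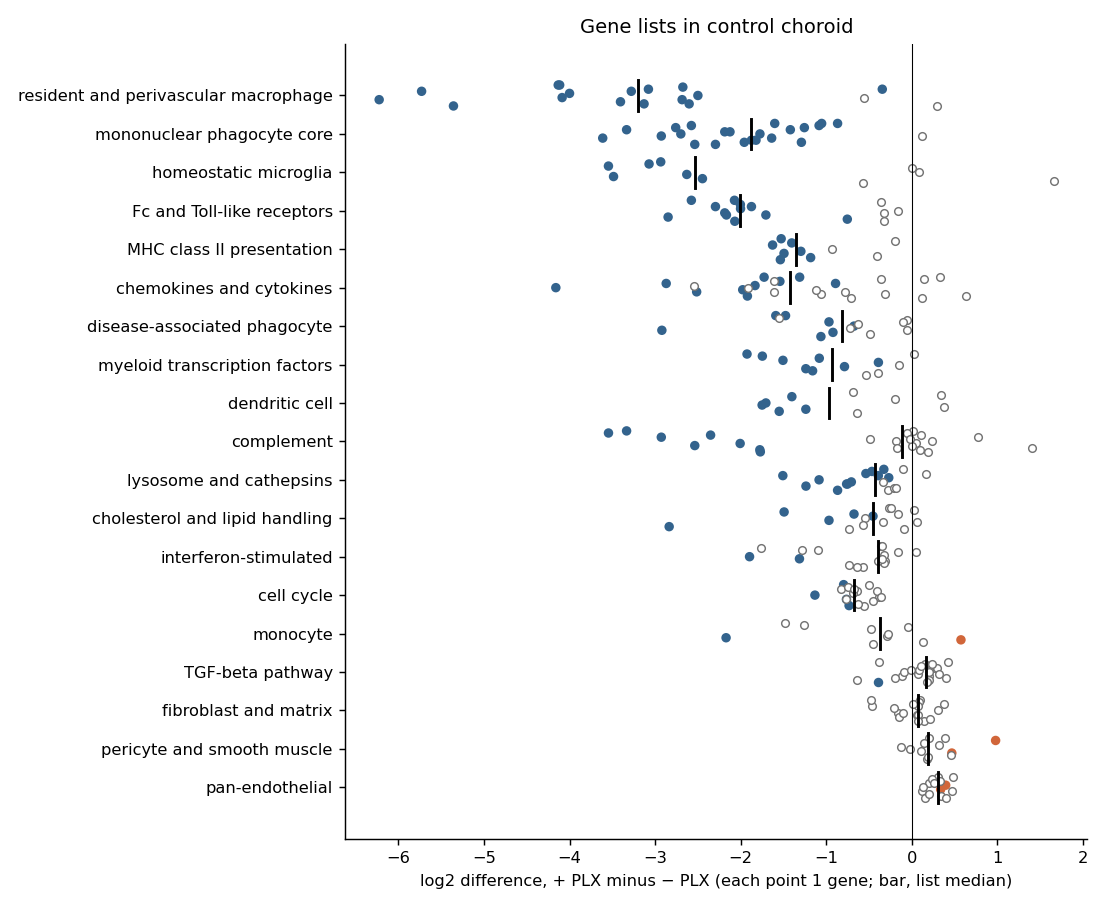
Log2 difference (control + PLX minus control – PLX) of each measured gene of 19 lists, with filled points for genes that passed an adjusted p of 0.05 (blue lower, orange higher) and open points for the others; the bar is the list median. Macrophage lists lie far below 0, complement has 8 filled points below -1 and open points from -0.48 to 1.41, and the pan-endothelial list lies wholly above 0.

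Of the 142 higher genes, 129 were protein-coding, and in 80 every mouse on PLX5622 was above every mouse on control food, against 0.936% of all genes tested. The count of 142 changed with the libraries used: it was 34 in a fit of the 10 control choroids alone, and between 67 (without mouse 14) and 257 (without mouse 12) with 1 mouse left out. It was 84, 68, 69 and 91 without mouse 1, 5, 11 and 15. Myo6, an actin motor, had the lowest p. It was at 1920, 2196, 2029, 2476 and 1821 normalized counts without PLX5622 and at 3383, 2825, 3176, 3335 and 3469 with it, a log2 difference of 0.64 ± 0.09 (adjusted p = 9.9e-05, limma). The groups did not overlap. Next by p were Caskin2 (1680 to 2543), which endothelium expresses, Ogdhl (684 to 1143), the transcription factor Sox13 (902 to 1305), the cytochrome Cyp1b1 (1969 to 2919), Rasl12, Psg17, the growth factor Fgf18 (104 to 174), Paxbp1, Sybu, Map3k6 (223 to 540), the DNA repair gene Xpc (704 to 1153), Susd5, Rasl11b and Raver2. Of these, Rasl12, Fgf18 and Susd5 did not pass in the 10 control choroids alone. Sybu was at 161, 193, 201, 136 and 138 without PLX5622 and at 490, 527, 201, 387 and 363 with it, mouse 13 being only just above the highest control – PLX mouse.

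The largest increases among genes of at least 10 normalized counts were mostly in genes of low level. Hif3a, a hypoxia-inducible factor subunit, was at 52.1, 100.3, 97.2, 144 and 69.7 without PLX5622 and at 522, 238, 250.4, 260.3 and 344 with it (log2 difference 1.81 ± 0.41, adjusted p = 0.011, limma). Its groups did not overlap. Psg17, Slco1b2, Tmsb15l and Cxcr1 stayed under 40 mean normalized counts in both groups, and Gvin-ps3, Gm12663, Gm49934 and Gm20547 are pseudogenes, a long noncoding RNA and a gene model at 0 in 4 of 5 control – PLX mice. Reads of pseudogenes may be shared with their parent genes, which makes these uncertain, as it does the lower Ldhb-ps and Mid1-ps1. Apart from Hif3a and Psg17, each of the 10 genes of largest increase lost its call under at least 1 alternative, Slco1b2 only in the 10 control choroids alone. Tmsb15l, Cxcr1, Gvin-ps3, Gm12663, Gm49934, Gm20547 and Chat, as well as the lower Mid1-ps1 and Cd300ld5, lost it when 1 of several mice was left out. Chat, the acetylcholine-synthesizing enzyme, was at 0, 5.09, 2.32, 4.08 and 2.996 without PLX5622 and at 3.06, 94.7, 8.61, 81.3 and 156 with it. The 3 high mice, 12, 14 and 15, also had the highest photoreceptor scores of their group (9.90, 9.97 and 12.8). Control – PLX mice 1, 4 and 5 had scores of 10.13, 10.61 and 10.62, above those of mice 12 and 14, with Chat at 0, 4.08 and 2.996. Control – PLX mice 2 and 3 had lower scores, 8.90 and 7.69. The source of the Chat RNA was not tested. With the photoreceptor score as a covariate the difference of Chat was 3.26 (adjusted p = 0.013, limma), and 3.37 without it, and it did not pass without mouse 12, 14 or 15, among others.

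Of 15 pan-endothelial genes, 2 rose with PLX5622, Tie1 and Esam (13.3%, beside 0.601% of all genes tested), and 13 did not pass. All 15 had a difference above 0, with a median of 0.31 against 0.02 over all genes, of which 12357 of 23619 were above 0. One-sided signs were also seen in lists of retinal pigment epithelium (8 of 8 above 0), melanocytes (7 of 7), Schwann cells (7 of 8) and erythroid cells (6 of 6), none with a gene that passed. The sign held in all 15 under each alternative setting, with medians of 0.26 to 0.37, while the number that passed went from 0 (the 10 control choroids alone) to 5 (without mouse 13), and was 1 without mouse 1, 3, 4, 5, 11 or 14. Esam, an adhesion molecule of endothelial junctions, was at 986, 1390, 1363, 1244 and 1406 normalized counts without PLX5622 and at 1682, 1899, 1543, 1630 and 1620 with it. Tie1, a receptor kinase of the angiopoietin system, was at 2609, 3196, 2889, 2842 and 2901 without PLX5622 and at 4067, 4276, 3067, 3702 and 3261 with it. Esam did not overlap between the diets, and for Tie1 mouse 13 was below mouse 2. Pecam1 (2859 and 3554), Cdh5 (3808 and 4213), Kdr (3423 and 3969), Flt1 (4000 and 5063) and Plvap (5516 and 7378) did not pass. Sox17, an arterial transcription factor, and Nos3, the endothelial nitric oxide synthase, were named after their values were seen. Sox17 was at 521, 267, 424, 344 and 381 without PLX5622 and at 696, 609, 613, 948 and 528 with it, and Nos3 rose from a mean of 1003 to 1456. Sema3g, likewise named afterwards, rose from 1146 to 1898. Nos3 did not pass without mouse 2, 4 or 11, nor Sox17 without mouse 2, 4, 5, 11 or 14 or in the 10 control choroids alone.

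Of 17 genes of angiogenesis, the lymphatic VEGF receptor Flt4 rose (742 to 1000) and the chemokine receptor Cxcr4 fell (850 to 469), and 15 did not pass. Each is 5.88% of the list, beside 0.601% higher and 3.15% lower over all genes, and rests on a single gene. Among the 15 that did not pass were Vegfa (5856 and 6789, log2 difference 0.21 ± 0.13), Pgf, Angpt2, Dll4, Esm1 and Apln. Of 12 mural cell genes, 2 rose, 16.7% of the list beside 0.601% of all genes tested. Rgs5, a pericyte gene, was at 13610, 17006, 14686, 17889 and 13573 without PLX5622 and at 23981, 16460, 19150, 23979 and 23206 with it, where mouse 12 overlapped the control – PLX mice. Myh11, smooth muscle myosin, was at 1506, 2594, 2785, 3639 and 1139 without PLX5622 and at 4545, 4003, 4642, 4511 and 3563 with it, overlapping only through mice 4 and 15. Neither passed in the 10 control choroids alone, nor did Flt4. Without mouse 1, 5, 11, 14 or 15, 1 of the 12 mural genes rose, and Flt4 did not pass without mouse 1, 3, 5, 11, 13 or 14.

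**Figure D4:**
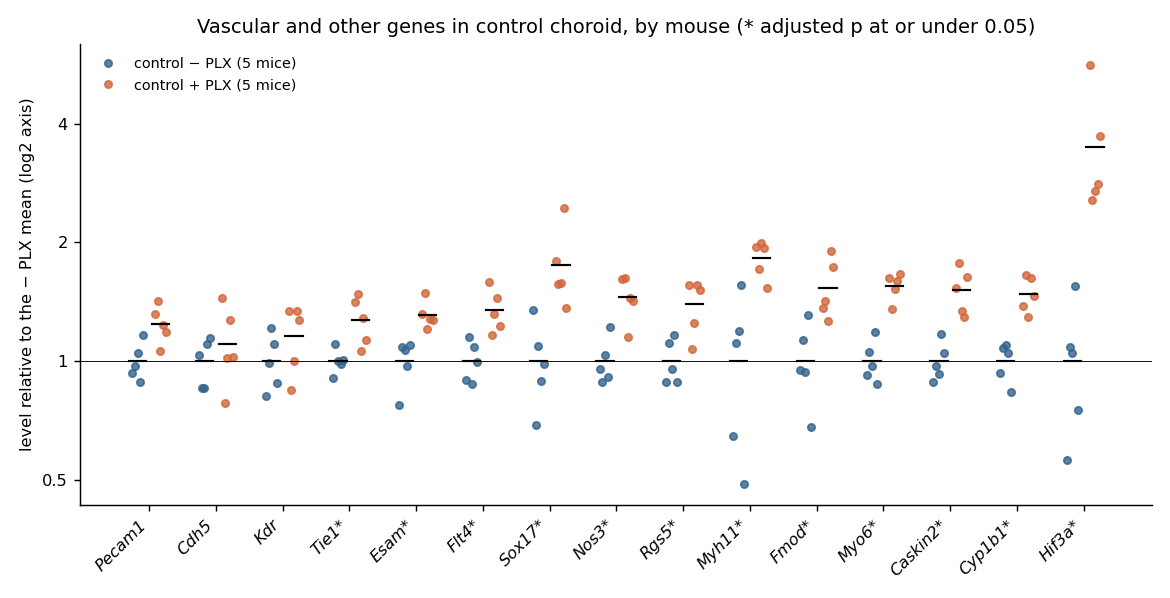
Level of 15 genes in each control choroid relative to the mean of the 5 control – PLX mice, on a log2 axis; each point is 1 mouse, each bar a group mean, and an asterisk marks an adjusted p at or under 0.05. Most control + PLX mice lie between 1 and 2, Hif3a reaches furthest, and Pecam1, Cdh5 and Kdr, without an asterisk, overlap between the diets.

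In the TGF-beta pathway, 1 of 22 genes passed (4.55%), near the 3.75% called over all genes tested. Tgfbr1, the type I receptor, was at 2756, 2483, 2501, 2434 and 2560 normalized counts without PLX5622 and at 2043, 1499, 2063, 1948 and 2221 with it (log2 difference -0.39 ± 0.10, adjusted p = 0.032, limma). The groups did not overlap, but Tgfbr1 did not pass without mouse 1, 2, 3, 5 or 14 or in the 10 control choroids alone. Tgfbr2, the floxed gene, was at a mean of 10503 and 11155 (difference 0.08 ± 0.09). The ligand Tgfb1 was at 2665 and 2040 (difference -0.38 ± 0.11, adjusted p = 0.064, limma), and Tgfb2, Tgfb3 and Smad7 did not pass.

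None of 17 fibroblast and matrix genes passed, although 1 fell without mouse 12 and 1 rose without mouse 13. Col1a1 was at 138008 and 148494, Fn1 at 42801 and 45594 and Timp1 at 2495 and 1792. The small collagen-binding proteoglycans Fmod and Prelp, outside the list and named after their values were seen, did pass. Fmod was at 31549, 37576, 31211, 43403 and 22615 without PLX5622 and at 45316, 47284, 41915, 63095 and 57734 with it, and Prelp rose from a mean of 10643 to 15667. Neither passed in the 10 control choroids alone or without mouse 1, 3, 5, 14 or 15, and Fmod also lost its call without mouse 11 and Prelp without mouse 13.

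Of 17 genes of cell division, 4 fell, Mki67, Top2a, Aurkb and Mcm5, and 13 did not pass. All 17 had a negative difference, with a median of -0.67, where 11234 of the 23619 genes tested were below 0. The skeletal muscle list was also wholly below 0 (10 of 10), without a gene that passed. Mki67 was at 1630, 1799, 1519, 2005 and 2162 normalized counts without PLX5622 and at 842, 713, 1958, 1104 and 943 with it. Mouse 13 lay among the control – PLX mice, and its mean level over the list was 9.22, against 8.12 to 8.37 in the other mice on PLX5622 and 8.83 to 9.47 on control food. Without mouse 13, 13 of the 17 passed. Without mouse 5 or mouse 15, or in the 10 control choroids alone, 1 did, and without mouse 2, 11, 12 or 14 it was 2.

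Lists for other cells and states gave 0 genes that passed in either direction: immediate early genes, gliosis, neural retina, retinal pigment epithelium, melanocytes, Schwann cells, skeletal muscle, erythroid cells, sex genes and mitochondrial RNA. With 1 mouse left out, at most 2 genes of any of these lists passed (immediate early genes, without mouse 12). With the photoreceptor score as a covariate, 867 genes passed (734 lower and 133 higher).

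The same comparison in Tgfbr2 ΔEC choroid, made with other mice, called 958 genes (4.06% of those tested), 826 lower (3.5%) and 132 higher (0.559%). Of the 743 genes lower in control choroid, 736 had a negative difference there and 520 passed, which is 70.0% of the control list and 63.0% of the Tgfbr2 ΔEC list. Of the 142 higher genes, 126 had a positive difference there and 14 passed, 9.86% and 10.6% of the respective lists. The median difference of the 743 was -1.32 in control and -1.11 in Tgfbr2 ΔEC, and that of the 142 was 0.58 and 0.28; the control values come from the fit that chose these genes. Cx3cr1 went from 1604 to 160 in Tgfbr2 ΔEC choroid, Mrc1 from 3685 to 209 and Csf1r fell by 1.00 on the log2 scale. Myo6 was at 2718 and 3241 there (difference 0.25, adjusted p = 0.15, limma). A test of the difference between the genotypes called 0 of 23619 genes (0% called; limma) with 1552 at an unadjusted p under 0.05, and 0 under every alternative run. Its genes of lowest p were Sv2a, Mtag2 and Rpl13a-ps1, whose difference was higher in control, and Rps12-ps4, Mid1-ps1 and Apol9b, whose difference was lower, each with an adjusted p of 0.33.

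The retina of the same 10 mice gave a different profile of loss. There, 287 of 24333 genes tested passed (1.18%), 276 lower (1.13%) and 11 higher (0.0452%). A test of the difference between tissues called 73 genes (0.3%), 40 with a smaller fall or larger rise in choroid (0.164%) and 33 with a larger fall or smaller rise in choroid (0.136%). Of the 40, 39 were called lower in retina, and 15 belonged to the core MP list. Tmem119 had the lowest p: retina went from 67.7 to 0.215 normalized counts while choroid stayed level, so that the differences of -5.88 and 0.01 differed by 5.88 ± 0.31 (adjusted p = 7.3e-10, limma). Mpeg1 went from 472 to 2.70 in retina, where choroid kept 41.3%, and Ctss from 708 to 3.23, where choroid kept 48.0%. Cx3cr1 and C1qa were almost lost from retina (261 to 0.475 and 385 to 1.91), and the choroidal difference was higher than the retinal one by 3.90 ± 0.39 for Cx3cr1 and 4.02 ± 0.54 for C1qa. Retinal levels this low make the size of such differences depend on the value added before taking logarithms. The count of 40 was 24 with 5 added and 59 with 0.5 added, and the cause of that shift was not tested.

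The 33 genes with a larger fall in choroid included 6 of the resident and perivascular list. Cd209f, Cd209g and Vsig4 had the lowest p, and each was listed at 0 in every control retina, so that no fall could be seen there; 10 of the 33 had a mean under 3 in retina. Cd163, Ccl8, Ccl24 and Fcna were others at low retinal level. Lyve1 and Slc40a1 were well measured in both tissues. Slc40a1 fell from 814 to 259 in choroid and stood at 126 and 149 in retina. The count of 33 was 18, 21 and 20 without mouse 3, 5 and 14, and 62 with 5 added before taking logarithms.

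**Figure D5:**
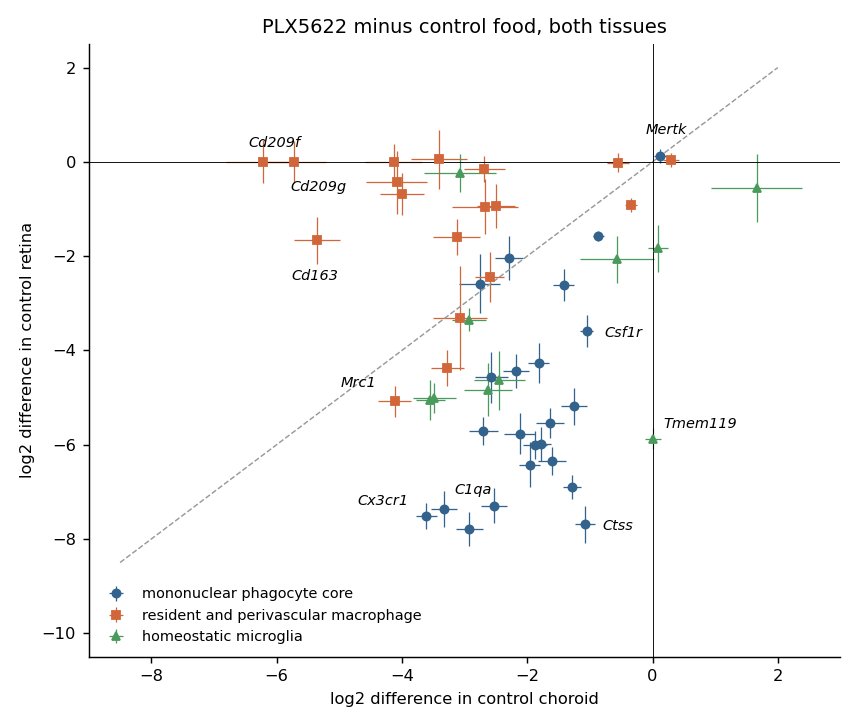
Log2 difference (PLX5622 minus control food) in control retina against that in control choroid for the measured genes of 3 lists, with bars for the SE and a dashed line of equality. Most core MP genes lie below the line, with larger falls in retina, while most resident and perivascular macrophage genes lie above it, with Cd209f and Cd209g at 0 in retina.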

How the data were processed

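RNA was sequenced from choroid and retina as poly(A)-selected, stranded, single-read libraries. Per the labels and the study's methods, the authors quantified reads with Salmon 1.10.1 against GRCm39 and normalized them with DESeq2 1.36.0; the deposited values are a signal, normalized counts per gene, already scaled between libraries. They are not whole numbers, and whole reads could not be recovered from them, so no count test was run. Genes averaging 1 normalized count or more over the fitted libraries were taken as log2(value + 1) and tested with limma 3.58.1 (trended variance, R 4.3.3), which understates the change of low genes. Choroid was fitted with its 4 groups together, 5 mice in each, and the tissue comparison with the 10 choroids and 10 retinas of the control mice. An adjusted p (Benjamini-Hochberg) at or under 0.05 over all genes tested was a call. The authors' own model held sex and an estimated neuronal share as covariates; here a sex score and a photoreceptor score were tried as alternatives. Differences are control + PLX minus control – PLX unless said. Floors and low values cover counting error only. Csf1r, Cx3cr1 and C1qc were also tested by an exact two-sided permutation test over mice. The fit was tested on simulated data.

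Members and 36 gene lists (449 genes, 448 matched) were chosen with earlier results of these data known. Named beside list members were the 15 genes of lowest p in each direction, the 10 called genes of largest difference in each direction among those averaging 10 or more normalized counts, and the 3 of lowest p in each direction of the genotype and tissue tests. Retina and choroid of 1 mouse carry the same number and come from the same animal; the correlation of their deviations ran from -0.11 to 0.15 over 10 mice, with a consensus of -0.033. Alternatives changed the added value, the filter, the scaling, the variance model, the covariates and the samples. Some list members, though counted, are not reported here by name.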

Additional observations from a re-analysis of the deposited data

Results flagged for a closer look

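Among the groups of 5 mice, 151 sets of values were screened for 1 mouse standing far from the others, and 7 did (4.64%), where chance gives about 1 in 20. In control – PLX, mouse 3 had Irf7 at 2052 normalized counts, and mouse 5 had a mean log2 level of 4.96 over the lymphocyte list. In control + PLX, mouse 12 had C3 at 8997.5 and mouse 13 had Gpnmb at 62880 and a cell cycle level of 9.22. Mouse 11 had the lowest immediate early level, 9.09, and the lowest skeletal muscle level, 10.43, of its group.

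Of the 73 genes whose difference between the diets differed between choroid and retina of the control mice by limma's test, those of lowest p in each direction were taken. Choroid minus retina was 5.88 for Tmem119, 5.602 for Mpeg1 and 6.61 for Ctss. It was -6.23 for Cd209f, -5.73 for Cd209g and -4.76 for Vsig4, but these 3 were listed at 0 in control retina on both diets, so that each value is the choroidal difference alone and no effect in retina could be measured.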

How the results depend on the processing

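In the 10 control choroids alone, 572 genes passed in place of 885, and 34 of them were higher. With 1 mouse left out, 671 to 1091 passed, 603 to 834 of them lower and 67 to 257 higher. The tissue comparison gave 50 to 82 genes with 1 mouse left out, 18 to 33 with a larger and 30 to 49 with a smaller fall in choroid. With 5 added before taking logarithms these were 62 and 24. With a replicate block by mouse, 69 genes passed in place of 73, 31 and 38 by direction. The cause of these shifts was not tested. The genotype comparison gave 0 genes under every alternative. For Csf1r, Cx3cr1 and C1qc the difference stayed at -1.13 to -0.96, -3.75 to -3.52 and -3.12 to -2.79 with 1 mouse left out. A set of 54 genes, mostly named for a low p or a large difference, was followed over 22 alternatives each, a choice that favours stable calls. Of these, 36 stayed called throughout, 2 of 24 lower and 16 of 30 higher genes lost the call at least once, and 0 reversed. List members outside the set, such as Csf3r and Tgfbr1, also lost their calls under some alternatives. Values at or under 3 reads in a library limit what can be said of low genes.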
